A study of Saccharomyces cerevisiae with 8 samples.

Results

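The 9 genes described here carry sulfate into the yeast cell and reduce it to sulfide. They are SUL1, SUL2, MET3, MET14, MET16, MET5, MET10, MET1 and MET8, taken by their systematic IDs from a read-count table of 7126 genes. The choice applied no cut-off to a measured value, but it was made with earlier results of these data known. All 9 were found in the table and passed the filter on low counts. The RNA came from BY4741, a haploid laboratory line of Saccharomyces cerevisiae of mating type a, as a mutation strain labelled as more tolerant of oxidation stress and as a control strain. With 2 libraries each, the titles give 4 groups: HP mutation, HP control, nHP mutation and nHP control. No source used here gives the mutated gene. All cultures grew in synthetic medium without uracil to mid-exponential phase, and the series description says that hydrogen peroxide was present in some of them. The medium entries contradict the titles, because they put peroxide in every control strain library and in no mutation strain library. HP and nHP are therefore used as titles only; if the medium entries were right, strain and peroxide could not be told apart. No label tells whether replicate libraries were made from different cultures, so a p-value here sets a difference against the spread of these libraries alone, which may be technical.

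As background, the permeases Sul1 and Sul2 import sulfate, Met3 and Met14 activate it with ATP, Met16 reduces the activated form to sulfite, and the sulfite reductase subunits Met5 and Met10 make sulfide. Met1 and Met8 build siroheme, the cofactor of that reductase. Met17 then joins sulfide to a carbon chain to give homocysteine, from which methionine and cysteine are made. Transcription of these genes is driven by the activator Met4, which has no strong DNA binding of its own and is brought to promoters by Cbf1 and by Met31 or Met32, and it is held back by the ubiquitin ligase subunit Met30 when organic sulfur is plentiful.

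BY4741 lacks MET17, and MET17 (YLR303W) was at 0 counts throughout the 8 libraries. A count of 0 allows up to 3 counts, which is 0.268 to 0.362 CPM (counts per 1e6 counted reads) depending on the library. LEU2, also deleted in BY4741, had 0 counts in every library too. URA3, deleted in BY4741 as well but needed for growth without uracil, had 14559 to 37054 counts in the mutation strain and 31689 to 38860 in the control strain, and HIS3, of which BY4741 keeps a part, had 45.6 to 76.0 CPM and 67.2 to 85.6 CPM in those strains. The 5 markers of mating type a that were looked up, STE2, MFA1, MFA2, BAR1 and AGA2, ran from 1.69 to 16.5 CPM in the mutation strain and from 71.6 to 822 CPM in the control strain, before composition scaling. The mutation strain libraries thus carried little of the transcripts that mark the labelled cell type; the part of this in the results below was not tested. Of the 4 markers of mating type alpha, SAG1 was the highest. It had 27.5 to 42.3 CPM in the mutation strain and 40.3 to 48.0 CPM in the control strain. STE3, MF(ALPHA)1 and MF(ALPHA)2 ran from 1.92 to 12.5 CPM and from 3.64 to 13.5 CPM in those strains. Total counts ran from 8296523 to 11202362 per library.

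Since the levels of these genes were compared as a group, the DNA upstream of each was read from the RefSeq R64 genome. The deposited tables hold no coordinates, and the sources used here do not name the build used for counting. Each window is printed from 5′ to 3′ on the gene's own strand and lies within the 500 bases before the start codon. Capitals mark CACGTG, the core of the site known for Cbf1, and CTGTGG, a core of the site known for Met31 and Met32, which reads CCACAG where it stands on the opposite strand.
SUL1, chrII:788795-788854 on the plus strand: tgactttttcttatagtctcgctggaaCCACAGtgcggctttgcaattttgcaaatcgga
SUL2, chrXII:323199-323268 on the plus strand: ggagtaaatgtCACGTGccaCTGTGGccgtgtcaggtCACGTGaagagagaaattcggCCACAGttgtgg
MET3, chrX:455849-455998 on the plus strand: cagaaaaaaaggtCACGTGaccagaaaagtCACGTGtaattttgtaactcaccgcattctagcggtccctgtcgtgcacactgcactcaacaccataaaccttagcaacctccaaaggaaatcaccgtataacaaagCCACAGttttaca
MET14, chrXI:439581-439640 on the minus strand: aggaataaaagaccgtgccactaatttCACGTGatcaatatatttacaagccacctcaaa
MET16, chrXVI:877783-877837 on the minus strand: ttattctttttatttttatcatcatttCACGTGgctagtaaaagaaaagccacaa
MET5, chrX:683571-683630 on the minus strand: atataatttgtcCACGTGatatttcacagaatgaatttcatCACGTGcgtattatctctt
MET10, chrVI:213047-213116 on the plus strand: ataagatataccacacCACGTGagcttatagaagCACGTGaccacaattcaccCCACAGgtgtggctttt
MET1, chrXI:571317-571376 on the plus strand: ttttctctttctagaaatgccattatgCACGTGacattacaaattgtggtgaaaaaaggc
MET8, chrII:650132-650191 on the plus strand: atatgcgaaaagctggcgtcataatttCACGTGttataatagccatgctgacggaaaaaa

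CACGTG, which reads the same on both strands, was present in the 500 bases before the start codon in 8 of the 9 genes. Over all 6019 protein-coding genes with a full window it was present in 374, or 6.21%. SUL2, MET3, MET5 and MET10 held 2 copies each, and MET14, MET16, MET1 and MET8 held 1 each. SUL1 was the gene without a match in this window. In each of the 8 genes at least 1 copy was flanked by the T or A that extends it to TCACGTG on either strand, a form found in 4.55% of all windows. CTGTGG, searched on both strands, was found in SUL1, SUL2, MET3 and MET10, that is 4 of 9, against 13.1% of all windows. A shifted spelling of the same site, TGTGGC, which overlaps it by 5 letters and is not marked by capitals, was found in 6 of 9 (SUL2, MET3, MET14, MET16, MET5 and MET10), against 14.2% of all windows. The copies of CACGTG lay between 377 and 173 bases before the start codon, farthest in MET3 and nearest in MET16. The lists of other sulfur genes described below held such matches too. CACGTG was present in 6 of 11 enzymes, 5 of 6 regulators, 1 of 10 salvage genes and 1 of 9 partners. CTGTGG was found in 9 of 11 enzymes, 3 of 6 regulators, 7 of 10 salvage genes and 0 of 9 partners. The matches were thus not particular to the 9 genes. They describe letters in the reference, and binding was not measured.

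**Figure D1:**
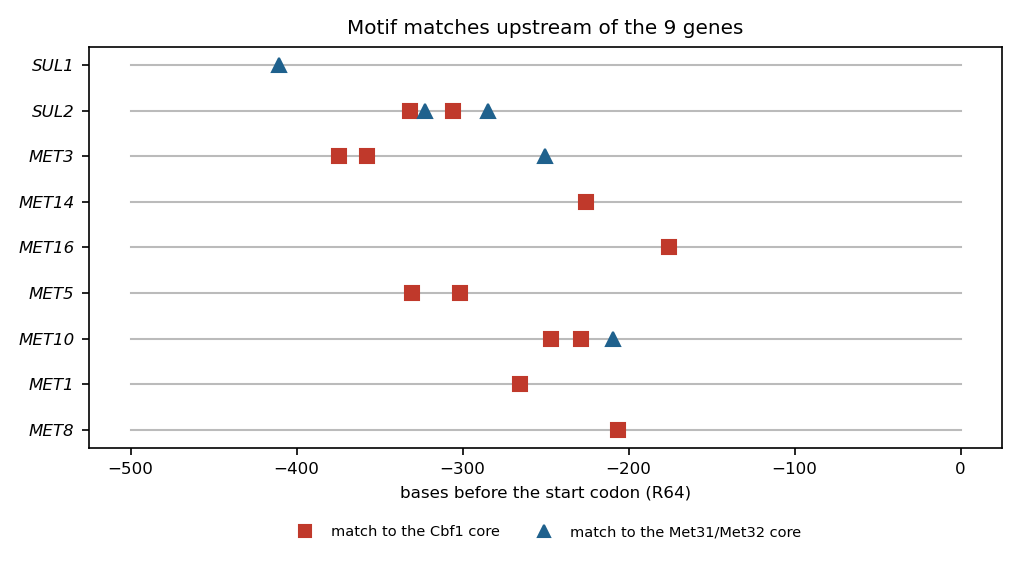
Position of motif matches in the 500 bases before the start codon of each gene in RefSeq R64 (x axis, bases before the start codon, 1 line per gene). Squares are matches to CACGTG and triangles are matches to CTGTGG on either strand; 8 genes carry 1 or 2 squares between 377 and 173 bases before the start codon, and SUL1 carries a triangle alone.

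Between the HP and nHP libraries all 9 genes rose, in the mutation strain and in the control strain. Their median log2 fold change was 1.75 in the mutation strain and 1.84 in the control strain, where the medians over all 6174 tested genes were 0.02 and 0.00. A gene is said to have risen or fallen when its edgeR p, from the quasi-likelihood test and adjusted after Benjamini and Hochberg over all tested genes, was below 0.05. In the mutation strain 25.2% of all genes rose and 24.1% fell by that measure, and in the control strain 1.44% rose and 0.518% fell. For each of the 9 genes the lower HP library stood above the higher nHP library of its strain; the same held for 41.1% of all genes in the mutation strain and for 19.8% in the control strain. Together the 9 genes took 1238 and 918 CPM in the HP mutation libraries, 1317 and 1500 in the HP control libraries, 332 and 313 in the nHP mutation libraries and 379 and 382 in the nHP control libraries. These CPM, and all CPM below, are scaled by TMM, a correction for library composition, and in bulk RNA a smaller share of expressing cells and less RNA per cell cannot be told apart.

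**Figure D2:**
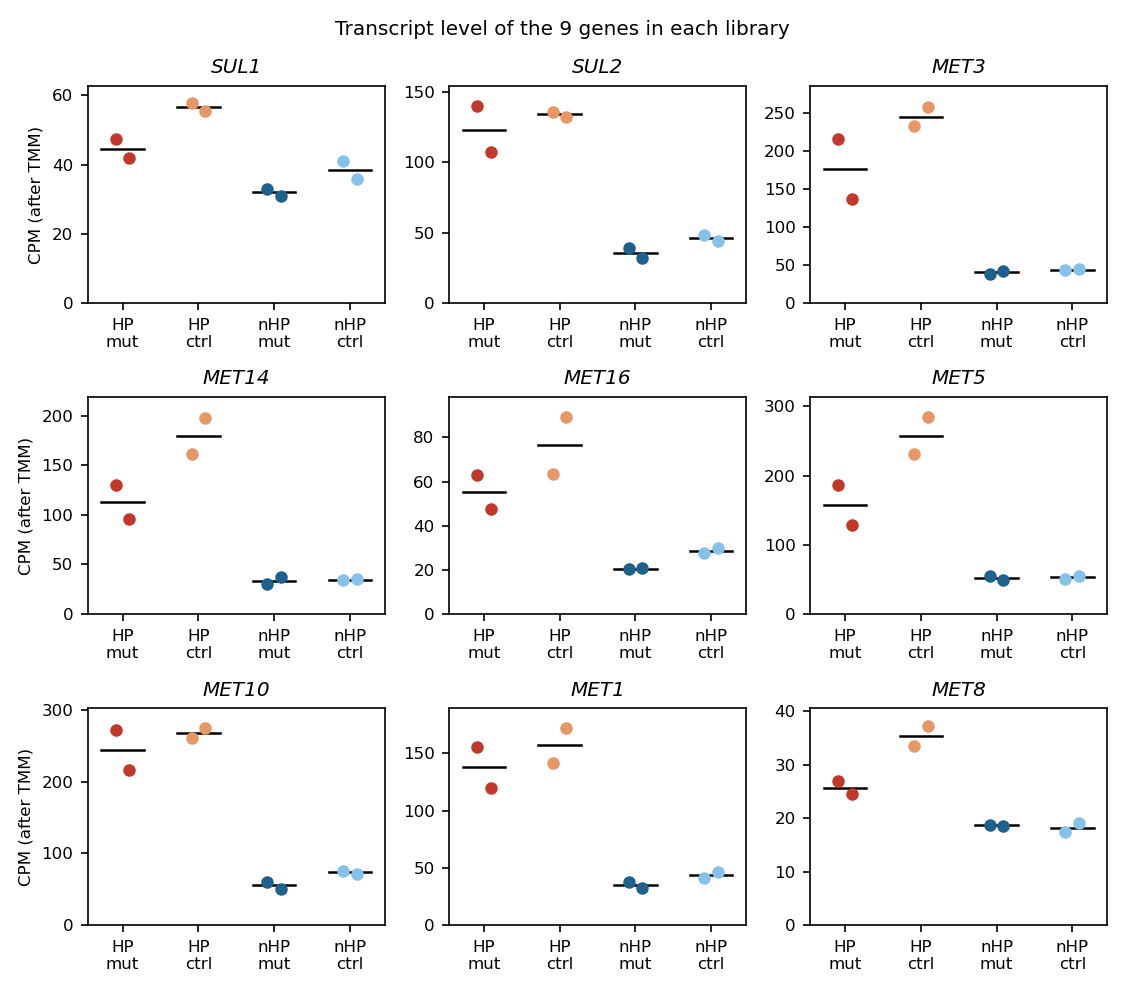
CPM after TMM (y axis, linear from 0, a separate scale in each panel) of the 9 genes in the 8 libraries, with HP mutation, HP control, nHP mutation and nHP control from left to right; each point is 1 library and each line the mean of 2. In every panel the HP points lie above the nHP points of the same strain; MET3 has HP points at 136 to 258 CPM and nHP points at 38.5 to 44.6 CPM.

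The 2 permeases differed in how much they moved. SUL2 (YLR092W) stood at 140 and 107 CPM in the HP mutation libraries and at 136 and 132 in the HP control libraries. Its nHP levels were 39.0 and 32.0 CPM in the mutation strain and 48.5 and 44.1 CPM in the control strain. The HP and nHP libraries of SUL2 were thus well apart in each strain. Its log2 fold change was 1.80 ± 0.14 in the mutation strain and 1.53 ± 0.13 in the control strain. Here and below, ± after a log2 fold change is the standard error from the edgeR fit to all 8 libraries, 2 per group. SUL1 (YBR294W) had 47.3 and 41.9 CPM in the HP mutation libraries and 57.8 and 55.5 in the HP control libraries, against 33.0 and 30.9 CPM in the nHP mutation libraries and 41.1 and 35.9 in the nHP control libraries. Within a strain the groups of SUL1 did not overlap, but the HP mutation and nHP control libraries lay next to each other, at 41.9 and 41.1 CPM. SUL1 rose by 0.48 ± 0.11 in the mutation strain (edgeR adjusted p = 0.00464) and by 0.56 ± 0.11 in the control strain (edgeR adjusted p = 0.0228). SUL1 in the control strain no longer passed when either nHP mutation library or either nHP control library was left out (log2 fold changes of 0.45 to 0.66 over all left-out libraries). Each permease gene has the other as its nearest relative, with 71.4% identity over 1405 aligned bases, and how reads shared between them were counted is not given.

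MET3 (YJR010W), for ATP sulfurylase, makes adenylyl sulfate from sulfate and ATP, the step at which sulfate is activated. It had 216 and 136 CPM in the HP mutation libraries and 232 and 258 CPM in the HP control libraries, against 38.5 and 42.2 CPM in the nHP mutation libraries and 43.2 and 44.6 in the nHP control libraries. HP mutation replicate 2 was the low one of the HP libraries, yet it lay far above every nHP library. MET3 rose 4.36-fold in the mutation strain (2.13 ± 0.18 on the log2 scale) and 5.58-fold in the control strain (2.48 ± 0.18). Ranked by log2 fold change among 6174 genes, it came 29th in the mutation strain and 3rd in the control strain.

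MET14 (YKL001C), for the kinase that adds a further phosphate to adenylyl sulfate, had 130 and 95.6 CPM in the HP mutation libraries and 161 and 198 in the HP control libraries. In nHP it had 30.0 and 37.2 CPM in the mutation strain and 34.1 and 35.2 CPM in the control strain. The nHP libraries of the strains interleaved, while every HP control library lay above every HP mutation library. MET14 rose 3.36-fold in the mutation strain (1.75 ± 0.16) and 5.19-fold in the control strain (2.37 ± 0.16), where it ranked 4th of all genes.

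MET16 (YPR167C), for the reductase that releases sulfite using thioredoxin, had 63.2 and 47.4 CPM in the HP mutation libraries and 63.4 and 89.3 in the HP control libraries, against 20.2 and 20.7 CPM in the nHP mutation libraries and 27.5 and 30.0 in the nHP control libraries. The HP control libraries were the widest pair, with a standard deviation of 18.3 CPM around a mean of 76.4 CPM (n = 2). Its rise was 2.71-fold in the mutation strain (1.44 ± 0.18) and 2.67-fold in the control strain (1.42 ± 0.17).

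The sulfite reductase subunits rose in each strain, but by different amounts. MET5 (YJR137C), for the beta subunit, had 186 and 129 CPM in the HP mutation libraries and 231 and 284 CPM in the HP control libraries, against 54.6 and 48.7 CPM in the nHP mutation libraries and 51.1 and 55.3 in the nHP control libraries. MET10 (YFR030W), for the alpha subunit, had 272 and 217 CPM in the HP mutation libraries and 262 and 275 in the HP control libraries, against 60.2 and 50.5 CPM in the nHP mutation libraries and 75.4 and 71.5 in the nHP control libraries. For MET5 the HP mutation libraries lay below both HP control libraries, and for MET10 they overlapped them. MET5 rose by 1.61 ± 0.16 in the mutation strain and by 2.28 ± 0.16 in the control strain, while MET10 rose by 2.15 ± 0.12 and by 1.87 ± 0.12 in those strains.

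Of the siroheme genes, MET1 (YKR069W), for the methyltransferase that draws on the heme precursor uroporphyrinogen III, had 156 and 120 CPM in the HP mutation libraries and 142 and 172 in the HP control libraries, against 37.6 and 32.4 CPM in the nHP mutation libraries and 41.3 and 46.0 in the nHP control libraries. MET8 (YBR213W), for the enzyme that oxidizes the ring and inserts iron, had 26.9 and 24.5 CPM in the HP mutation libraries and 33.4 and 37.3 in the HP control libraries, against 18.8 and 18.6 CPM in the nHP mutation libraries and 17.4 and 19.0 in the nHP control libraries. MET1 was clearly apart between titles in each strain, and MET8 was apart by less. MET1 rose by 1.98 ± 0.15 in the mutation strain and by 1.84 ± 0.14 in the control strain. MET8 rose by 0.46 ± 0.13 in the mutation strain (edgeR adjusted p = 0.0118) and by 0.96 ± 0.12 in the control strain (edgeR adjusted p = 0.00122). Without HP mutation replicate 1 or nHP mutation replicate 2, the rise of MET8 in the mutation strain did not pass (0.41 and 0.47, edgeR adjusted p = 0.0743 and 0.0577).

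**Figure D3:**
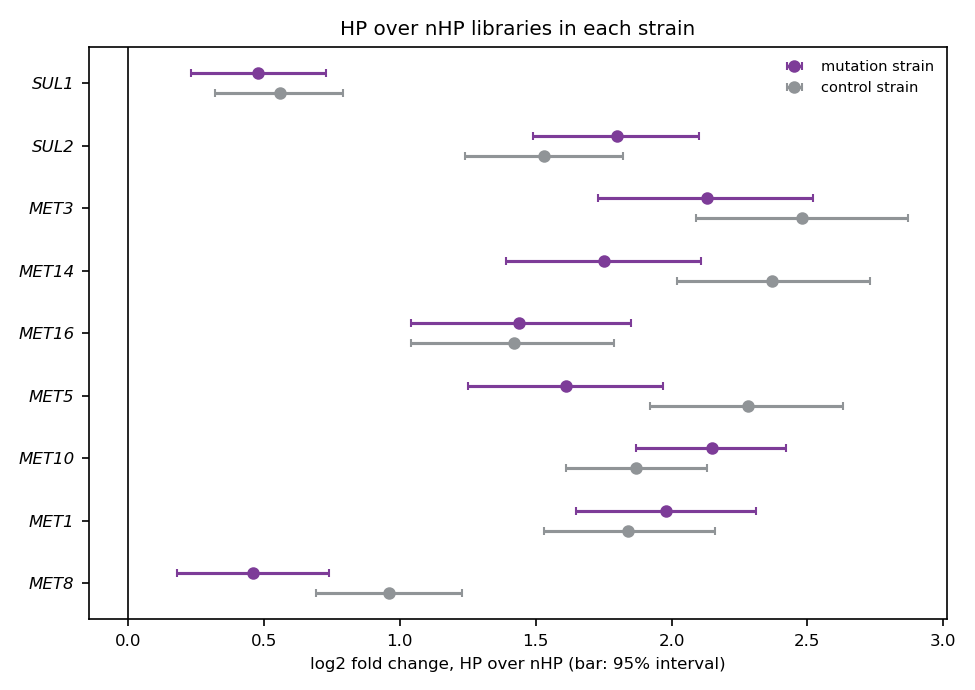
Log2 fold change of HP over nHP libraries (x axis) for each gene (y axis), with the mutation strain above the control strain; points are estimates from edgeR and bars are 95% intervals. All intervals lie above 0; SUL1 and MET8 have the smallest values, 0.46 to 0.96, and the other 7 genes lie between 1.42 and 2.48.

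In each strain SUL1 and MET8 were the 2 smallest rises of the 9, and the upper ends of their 95% intervals, 0.73 and 0.74 in the mutation strain and 0.79 and 1.23 in the control strain, lay below the lower ends of the other 7 genes there, except that MET16 in the control strain reached down to 1.04. The largest rises were MET10 (2.15) and MET3 (2.13) in the mutation strain and MET3 (2.48), MET14 (2.37) and MET5 (2.28) in the control strain, and the intervals within each of these sets overlapped. Set beside the upstream windows, SUL1 is the gene without CACGTG, and MET8 is a gene with 1 copy and no match to either spelling of the Met31/Met32 core, as is MET1, which rose by 1.98 and 1.84. The 4 genes with 2 copies rose by 1.61 to 2.15 in the mutation strain and by 1.53 to 2.48 in the control strain, and the 4 with 1 copy rose by 0.46 to 1.98 and by 0.96 to 2.37. The ranges overlap, and no test of the relation was made.

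**Figure D4:**
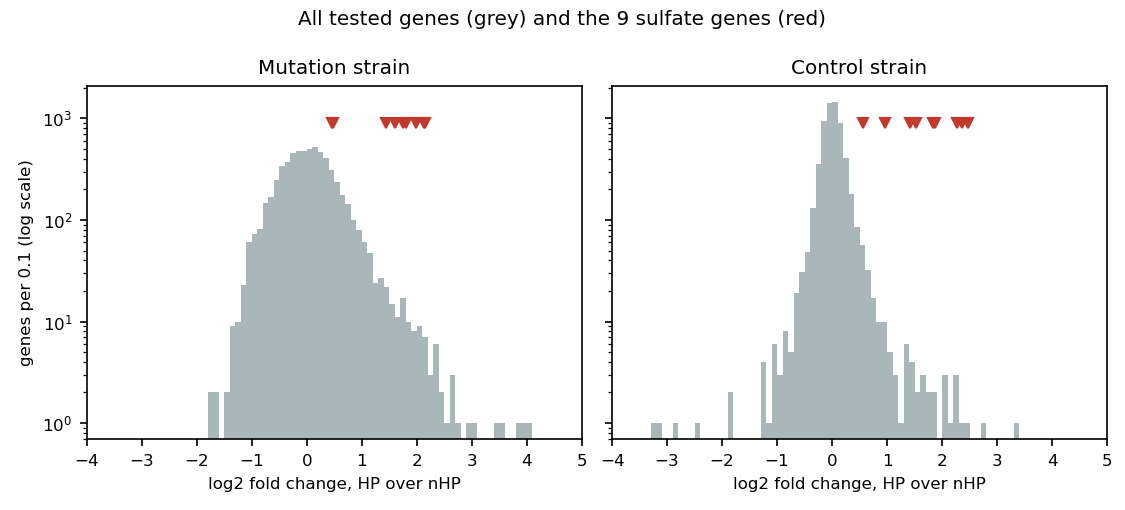
Histograms of the log2 fold change of HP over nHP libraries (x axis) of all 6174 tested genes, in bins of 0.1 with a log-scaled count axis, for the mutation strain (left) and the control strain (right); red marks give the 9 genes. In the control strain the 9 marks, at 0.56 to 2.48, lie beyond the 95th percentile of all genes (0.35); in the mutation strain, where the 95th percentile is 0.94, SUL1 and MET8 lie inside it and the other 7 outside.

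Levels can be compared between genes only per length, for which the deposited RPKM (reads per kilobase of gene per 1e6 counted reads) were used. MET14 had the highest RPKM of the 9 in all 4 groups, at 190 ± 39.3 in HP mutation, 297 ± 43.4 in HP control, 51.8 ± 5.76 in nHP mutation and 58.4 ± 0.392 in nHP control (SD, n = 2 each). MET3 came next in the HP libraries, at 117 ± 36.4 RPKM in the mutation strain and 161 ± 11.8 RPKM in the control strain (SD, n = 2 each). In HP control, MET16, MET1 and MET10 followed at 98.1, 88.7 and 87.2 RPKM, and each overlapped its neighbour in this order. Below them MET5 (60.0 RPKM), SUL2 (50.4), MET8 (43.3) and SUL1 (22.2) did not overlap. In nHP control the lowest gene was MET5, at 12.6 RPKM, below SUL1 (15.4) and SUL2 (17.8).

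The order changed between titles because the genes rose unequally. The RPKM of SUL2 was 2.85 and 2.44 times that of SUL1 in the HP mutation libraries and 2.26 and 2.29 times in the HP control libraries, against 1.14 and 0.997 times in the nHP mutation libraries and 1.13 and 1.18 times in the nHP control libraries. For MET1 over MET8 the ratios were 2.70 and 2.26 in HP mutation and 1.96 and 2.13 in HP control, against 0.926 and 0.809 in nHP mutation and 1.10 and 1.12 in nHP control. These ratios separated the titles in each strain. The 2 reductase subunits behaved otherwise: MET5 over MET10 was 0.491 and 0.425 in HP mutation and 0.634 and 0.740 in HP control, and 0.651 and 0.693 in nHP mutation and 0.486 and 0.555 in nHP control. That ratio was lower in HP than in nHP in the mutation strain and higher in HP than in nHP in the control strain.

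Between strains the differences were smaller. Among the HP libraries, 6 of the 9 genes fell in the mutation strain relative to the control strain and none rose, where 14.0% of all genes fell and 14.7% rose. The 2 mutation strain libraries lay below both control strain libraries for 6 of the 9, and for 36.7% of all genes. MET5 fell by 0.71 ± 0.15 and MET14 by 0.67 ± 0.15 on the log2 scale, to 157 and 113 CPM in the mutation strain, against 257 and 179 CPM in the control strain. The edgeR adjusted p was 0.00598 for MET5 and 0.00673 for MET14. MET3, MET16, MET8 and SUL1 fell by 0.48 ± 0.16, 0.47 ± 0.16, 0.46 ± 0.12 and 0.34 ± 0.11. SUL2, MET10 and MET1, at −0.12, −0.13 and −0.18, did not pass, with 95% intervals from −0.39 to 0.16 for SUL2, from −0.38 to 0.12 for MET10 and from −0.47 to 0.11 for MET1. The median of the 9 was −0.46, beside −0.05 over all genes.

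All 9 genes were lower in HP mutation replicate 2 than in replicate 1, by ratios of replicate 1 over replicate 2 of 1.10 to 1.58. The number of genes called depended on this library and on others. Leaving out HP mutation replicate 2 moved the median of the 9 from −0.46 to −0.23. Without that library the 6 genes ran from −0.44 (MET5 and MET14) to −0.16 (MET3) and missed the threshold, with edgeR adjusted p from 0.0593 to 0.368, and SUL2, MET10 and MET1 turned to 0.09, 0.05 and 0.02. The count of 6 became 2 without HP control replicate 2, and it became 3 without nHP mutation replicate 1, nHP mutation replicate 2 or nHP control replicate 2. MET16 stood at −0.17 without HP control replicate 2, and at −0.25 without HP mutation replicate 2. MET3 and MET16 also missed the threshold under RLE scaling, with no composition scaling, with no filter, with a filter of 10 CPM, on log2 RPKM and with only the 4 HP libraries fitted. SUL1 missed it with no composition scaling, with the filter of 10 CPM, on log2 RPKM and with only the 4 HP libraries fitted. In DESeq2, SUL1 and MET16 missed it as well (DESeq2 adjusted p = 0.104 and 0.0571). With only the 4 HP libraries fitted, 2 of the 9 genes passed, so not all of MET5, MET14 and MET8 passed in that fit.

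Among the nHP libraries, MET10 alone fell in the mutation strain, by 0.41 ± 0.13 (edgeR adjusted p = 0.0379), where 9.91% of all genes fell and 11.4% rose. Its 2 mutation strain libraries, at 60.2 and 50.5 CPM, lay below the control strain libraries at 75.4 and 71.5 CPM. MET16, SUL2, MET1 and SUL1 had log2 fold changes of −0.49 ± 0.20, −0.38 ± 0.14, −0.32 ± 0.16 and −0.27 ± 0.12, and none of them passed. The 95% interval of MET1, from −0.66 to 0.02, reached past 0. Those of MET16 (−0.92 to −0.06), SUL2 (−0.70 to −0.07) and SUL1 (−0.52 to −0.02) lay below 0. MET3 (−0.12 ± 0.19), MET14 (−0.04 ± 0.17), MET5 (−0.04 ± 0.17) and MET8 (0.04 ± 0.13) had 95% intervals on either side of 0, the widest from −0.53 to 0.29 for MET3. For 6 of the 9 genes both mutation strain libraries lay below both control strain libraries, and the same held for 35.2% of all genes. The main fit pools the spread of all 8 libraries. With only the 4 nHP libraries fitted, MET16, SUL2 and MET1 passed besides MET10 (edgeR adjusted p = 0.00903, 0.021 and 0.0468). The call of MET10 ended when any 1 of the 4 nHP libraries was left out, with log2 fold changes of −0.51 to −0.28 over all left-out libraries. Without HP control replicate 1 the count was 3, and without HP control replicate 2 it was 2.

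**Figure D5:**
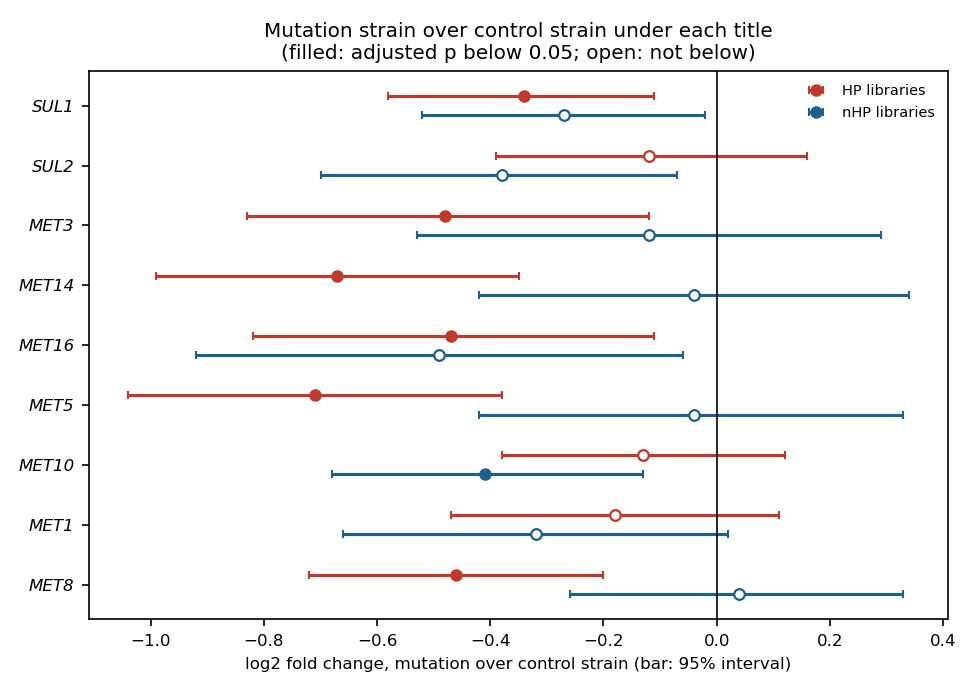
Log2 fold change of the mutation strain over the control strain (x axis) for each gene (y axis), with HP libraries above nHP libraries; filled points passed an adjusted p below 0.05 in edgeR's test, open points did not, and bars are 95% intervals. In HP the points run from −0.71 (MET5) to −0.12 (SUL2) and 6 are filled; in nHP they run from −0.49 (MET16) to 0.04 (MET8) and MET10 is filled.

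Whether the HP difference itself depended on the strain was tested as an interaction, that is the log2 HP over nHP change in the mutation strain less the one in the control strain. MET5 passed, with −0.67 ± 0.23 (edgeR adjusted p = 0.0468), where 14.6% of all genes were called in that direction and 14.6% in the other. MET14 at −0.63 ± 0.23 and MET8 at −0.50 ± 0.18 were of like size and did not pass (edgeR adjusted p = 0.0581 and 0.0561). The other 6 genes ran from −0.36 (MET3) to 0.28 (MET10), and did not pass; their 95% intervals ran as low as −0.90 for MET3 and as high as 0.68 for SUL2. The call of MET5 was lost without either nHP mutation library, either nHP control library, HP mutation replicate 2 or HP control replicate 2 (edgeR adjusted p = 0.0860 to 0.149), and without HP mutation replicate 1 or HP control replicate 1 the number called was 3.

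Other genes of sulfur metabolism were counted in the same way. Of 11 enzymes that make homocysteine, methionine, cysteine and S-adenosylmethionine, 10 could be tested, MET17 being at 0 counts. In the mutation strain 5 rose and none fell, with a median log2 fold change of 0.43, where 25.2% of all genes rose. In the control strain 8 rose and none fell, with a median of 0.92, where 1.44% of all genes rose. STR3, for cystathionine beta-lyase, rose by 3.50 ± 0.28 in the mutation strain and by 3.31 ± 0.23 in the control strain, where it ranked 1st of all genes. MET2, which acetylates homoserine, rose by 2.33 ± 0.12 in the mutation strain and by 1.67 ± 0.11 in the control strain. SAM1, for an S-adenosylmethionine synthetase, had −0.13 ± 0.14 in the mutation strain and rose by 1.03 ± 0.14 in the control strain, and its interaction was −1.16 ± 0.19 (edgeR adjusted p = 0.00228). STR2, for cystathionine gamma-synthase, had the opposite sign of interaction, at 0.76 ± 0.12. Of these enzymes, SAM1 and SAM2 were the 2 with the smallest p among those called between strains in nHP, where they rose by 0.74 ± 0.14 and 0.81 ± 0.16 in the mutation strain. In HP, STR2 rose by 0.44 ± 0.08 and STR3 fell to 0.499 times its control strain level in the mutation strain. Over this list 4 enzymes rose and 2 fell between strains in nHP, where 11.4% of all genes rose and 9.91% fell, and 2 rose and 4 fell in HP, where 14.7% rose and 14.0% fell.

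Genes for taking up and salvaging organic sulfur were also mostly higher in the HP libraries. Of 10, 9 rose in the mutation strain and 6 rose in the control strain, with medians of 1.66 and 1.02, and none fell; of all genes, 25.2% rose in the mutation strain and 1.44% in the control strain. MMP1, the S-methylmethionine permease gene, rose by 2.69 ± 0.16 in the mutation strain and by 2.26 ± 0.15 in the control strain, and MUP1, the high-affinity methionine permease gene, by 1.95 ± 0.12 and 2.06 ± 0.12. SAM3, for the S-adenosylmethionine permease, rose by 1.73 ± 0.10 in the mutation strain and by 1.13 ± 0.10 in the control strain, with an interaction of 0.60 ± 0.14. YCT1, a cysteine transporter gene, had an interaction of 0.68 ± 0.15. Between strains in nHP, 5 of the 10 fell and none rose in the mutation strain (9.91% and 11.4% of all genes), among them YCT1 by 0.86 ± 0.11 and SAM3 by 0.70 ± 0.10. In HP, SAM4, which uses S-adenosylmethionine to make methionine from homocysteine, fell by 0.52 ± 0.14. MUP3, a low-affinity methionine permease gene, fell by 0.49 ± 0.15, and the other 8 did not pass. Over all genes 14.0% fell and 14.7% rose in that comparison, so 2 of 10 lie near the share of all genes.

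Of 6 regulators of these genes, 5 could be tested. MET28, a cofactor of Met4, had 2 and 1 counts in the HP mutation libraries and 1 and 3 in the HP control libraries, and 0 counts in all 4 nHP libraries. A count of 0 allows up to 3 counts, so these values show no difference between HP and nHP. MET32 rose by 1.66 ± 0.16 in the mutation strain and by 1.62 ± 0.15 in the control strain. MET30 rose by 1.29 ± 0.11 in the mutation strain and by 0.51 ± 0.11 in the control strain, a difference of 0.77 ± 0.15 between strains (edgeR adjusted p = 0.00481 for the interaction). MET4 itself rose by 0.55 ± 0.09 in the mutation strain and had 0.10 ± 0.09 in the control strain, with an interaction of 0.44 ± 0.12 (edgeR adjusted p = 0.0203). MET31 had −0.11 ± 0.16 and −0.08 ± 0.15 in those strains and did not pass. Between strains, MET31 fell in the mutation strain by 0.62 ± 0.15 in HP and by 0.59 ± 0.16 in nHP, and MET30 rose by 0.66 ± 0.11 in HP. In all, 4 of the 5 rose in the mutation strain, where 25.2% of all genes rose, and 2 in the control strain, where 1.44% did, and none fell; a difference of the list between strains was not tested.

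Of 9 partners of the pathway, 2 rose and 2 fell in the mutation strain, near the shares over all genes (25.2% and 24.1%), and 2 rose and none fell in the control strain (1.44% and 0.518% of all genes). SSU1, for the sulfite exporter, rose by 1.12 ± 0.10 in the mutation strain and had 0.20 ± 0.10 in the control strain, with an interaction of 0.93 ± 0.14. FZF1, for its activator, rose by 0.68 ± 0.15 in the control strain and had 0.25 ± 0.14 in the mutation strain. TRR1, for the thioredoxin reductase that keeps the electron donor of Met16 reduced, fell by 0.81 ± 0.13 in the mutation strain and had 0.52 ± 0.13 in the control strain, and its interaction was −1.33 ± 0.19. TRX2, a thioredoxin gene, rose by 0.59 ± 0.12 in the control strain and had −0.21 ± 0.12 in the mutation strain. Between strains, TRR1 rose by 0.85 ± 0.13 and TRX2 by 0.56 ± 0.12 in nHP in the mutation strain, and in HP SSU1 rose by 0.80 ± 0.10 and TRR1 fell by 0.48 ± 0.13. Of the heme-pathway genes that lead to and from the siroheme branch point, HEM3, for the enzyme whose product the Hem4 enzyme uses, fell by 0.35 ± 0.08 in the mutation strain and had −0.04 ± 0.08 in the control strain, and between strains in HP it fell by 0.26 ± 0.08. HEM4, for the synthase of uroporphyrinogen III, had 0.24 ± 0.11 in the mutation strain and 0.11 ± 0.10 in the control strain, and HEM12, which draws the same compound towards heme, had −0.15 ± 0.09 and −0.11 ± 0.09, and neither passed.

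The genes outside the 9 whose profile over the 8 libraries came closest to theirs were MET32, MET6, MUP3, MXR1 and OPT1. Likeness was the root-mean-square difference between a gene's log2 CPM, centred on its mean, and the mean centred profile of the 9 genes, over the 5428 genes whose mean reached 10 CPM. It was 0.07 for MET32 and for MET6, the methionine synthase gene, 0.16 for MUP3, 0.18 for MXR1, a methionine sulfoxide reductase gene, and 0.21 for OPT1, a glutathione and oligopeptide transporter gene. In all, 29 of the 5428 genes lay within 0.5 of the mean profile of the 9. Of the 9 themselves, SUL2 (0.14) and MET16 (0.16) lay closest to their mean profile, and MET3 (0.35), MET8 (0.47) and SUL1 (0.55) lay farthest. MET6 had a mean of 935 CPM in HP mutation and 1252 in HP control, against 347 in nHP mutation and 365 in nHP control. In the 500 bases before the start codon, MET32, MET6 and MUP3 each held 1 CACGTG and 1 CTGTGG, MXR1 held 1 CTGTGG, and OPT1 held neither. The comparisons above share libraries with each other, so likeness over them is a description of these 8 libraries.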

How the data were processed

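The submitters' processing notes name TopHat2 2.0.9. Counting program, strand setting, build and annotation: not given in the sources used here. The deposited counts are whole reads per gene and library. The deposited RPKM were checked to equal those counts divided by the library total and by 1 length per gene (within 0.1%, in 5791 of 5791 genes with at least 20 counts in every library). Of 7126 IDs, 6048 matched a symbol in RefSeq R64, used for names, sequences and overlaps; no other R64 gene overlaps any of the 9 genes. The members, gene lists and tests were chosen with earlier results of these data known.

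edgeR 4.0.16 (R 4.3.3) fitted 1 quasi-likelihood model of the 4 group means to all 8 libraries, after its standard count filter (6174 genes) and TMM, with 4 residual degrees of freedom and a common dispersion of 0.00651. Two-sided p-values were adjusted by Benjamini-Hochberg over all tested genes. Alternatives were RLE or no composition scaling, no filter, 10 CPM required in 2 libraries, DESeq2 1.42.0, limma 3.58.1 (voom, or log2 RPKM with a pseudocount of 1 or 0.1), only the 4 libraries compared, a replicate block, and leaving out each library. Named genes are the 9, and per comparison the 2 called genes with the smallest p in each of 4 other lists, MET17, and the 5 closest profiles; HEM3, HEM4, HEM12, MET28, and repeats of a gene in other comparisons, were added after their values were seen. Copies were sought with BLAST 2.17.0. Count floors cover counting error only, since reads carry no molecular identifiers.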

Additional observations from a re-analysis of the deposited data

Results flagged for a closer look

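MET5, for the beta subunit of sulfite reductase, differed between strains in its HP over nHP change: the interaction was −0.67 on the log2 scale (edgeR adjusted p = 0.0468), with rises of 1.61 in the mutation strain and 2.28 in the control strain. It rested on HP mean levels of 157 CPM in the mutation strain and 257 CPM in the control strain, and on nHP levels of 51.6 and 53.2 CPM in those strains. Over all genes 14.6% were called lower and 14.6% higher, and 1 of the 9 sulfate genes was called. The call of MET5 was lost without 6 of the 8 libraries, each left out in turn (values from −0.94 to −0.40 over all 8), and with no composition scaling, no filter, the 10 CPM filter, limma-voom or log2 RPKM.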

How the results depend on the processing

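With 2 libraries per group, the rises under the HP title kept their direction in every setting run, with 8 or 9 of the 9 genes called in each strain; SUL1 in the control strain dropped out on log2 RPKM (0.51 and 0.53) and with only the 4 libraries compared (0.55). The other counts moved. Of the 9 genes, the number lower in the mutation strain in nHP, 1 as reported, was 4 with no composition scaling or only the 4 libraries compared and 2 on log2 RPKM with either pseudocount or with a replicate block, and 0 to 3 with a library left out. In HP, 6 became 4 under RLE scaling, with no filter and with DESeq2, 3 with no composition scaling, with the 10 CPM filter and on log2 RPKM with either pseudocount, 2 with only the 4 libraries compared, and 0 to 6 with a library left out. For the interaction, 1 became 0 with no composition scaling, no filter, the 10 CPM filter, limma-voom or log2 RPKM, 2 with DESeq2 or a replicate block, and 0 to 3 with a library left out. Replicates also differed beyond read sampling, most in HP control. Their chi-square against read sampling averaged 21.1 per gene in HP control, 10.4 in nHP mutation, 6.58 in HP mutation and 5.73 in nHP control. The cause of the moved counts, and the part of this spread in them, was not tested.

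Over all genes, the strain comparison called 1318 in nHP (432 to 1860 with a library left out) and 1769 in HP (657 to 2593; 1043 with only the 4 libraries compared). HP against nHP called 3043 in the mutation strain (1773 to 3434) and 121 in the control strain (53 to 219; 72 with only the 4 libraries compared, 220 with a replicate block), and the interaction 1803 (725 to 2598). With no composition scaling the median of all genes shifted by −0.13 in the nHP strain comparison, 0.12 in the mutation strain and 0.15 in the interaction; the split of higher and lower calls, 706 and 612, 1557 and 1486, and 904 and 899, became 419 and 1236, 2106 and 1051, and 1321 and 576. On log2 RPKM with a pseudocount of 1 the splits were 372 and 1139, 2061 and 988, and 1208 and 503.

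Reversals touched uncalled values only. MET8 in the nHP strain comparison was −0.09 with no composition scaling or on log2 RPKM, and SUL1 in the interaction was 0.08, 0.06 and 0.07 under those settings. With a library left out, MET14 ran from −0.20 to 0.14, MET5 from −0.10 to 0.04 and MET8 from −0.03 to 0.11 in the nHP strain comparison, SUL2 from −0.31 to 0.09, MET10 from −0.28 to 0.05 and MET1 from −0.36 to 0.02 in the HP strain comparison, and SUL1 from −0.17 to 0.04, MET16 from −0.19 to 0.30 and MET1 from −0.05 to 0.34 in the interaction.

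Replicate numbers are shared by the groups, and no label says whether they name a common culture. The deviations of replicate 1 from its group mean correlated over genes at −0.0332 to 0.204 between groups. These values cannot settle whether replicates of 1 number belong together, and the main fit took no pairing. With a replicate block the genes called over all were 1747 and 2350 between strains in nHP and HP, against 1318 and 1769. HP against nHP in the control strain had 220 against 121, and the interaction 2298 against 1803. With the replicate block, MET14 passed in the interaction (−0.62, edgeR adjusted p = 0.0342) and SUL2 in the nHP strain comparison (−0.39, edgeR adjusted p = 0.0170).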
